A study of Mus musculus with 6 samples.

Results

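Nuclear-encoded oxidative phosphorylation genes were examined in peak lists of BMAL1 chromatin immunoprecipitation sequencing (ChIP-seq) from mouse retina. The group was defined by gene symbol alone, as every protein-coding gene whose symbol begins with Nduf, Uqcr, Atp5, Cox4, Cox5, Cox6, Cox7 or Cox8, together with Sdha, Sdhb, Sdhc and Sdhd. Of the 21900 protein-coding genes in the RefSeq gene table (GRCm38.p6, the assembly that mm10 names), 96 met this rule. By symbol they comprise 41 genes of complex I and 8 complex I assembly factors (the Ndufaf genes). The 41 include Ndufa4, its relative Ndufa4l2 and the short copies Ndufb4b and Ndufb4c. The others are 4 genes of complex II, 8 of complex III, 18 of complex IV and 17 of complex V. The rule itself uses no measured value, but it was chosen with earlier results of these data known.

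The libraries were made with a rabbit antibody against BMAL1 from retinas of C57BL/6 mice, 3 libraries labelled Bmal1 CKO (1 to 3) and 3 labelled control (1 to 3, genotype wild type), none with an outside treatment. CKO commonly stands for a conditional knockout. The labels do not give the Cre driver or the retinal cells in which Bmal1 was deleted, the age at collection or the time of day. ChIP-seq finds places on the chromatin that the antibody's target occupied as peaks of sequenced fragments, and the position with most fragments in a peak is its summit. BMAL1 is a transcription factor of the circadian clock that binds the E-box sequence CACGTG together with its partner CLOCK.

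Photoreceptors have a high demand for ATP, and their inner segments are packed with mitochondria. Complexes I and II pass electrons to ubiquinone, complex III passes them on to cytochrome c, complex IV hands them to oxygen, and complex V (ATP synthase) uses the resulting proton gradient to make ATP. The complexes other than II also contain subunits encoded by the mitochondrial genome, and the nuclear genes must be transcribed in step with those. Several complex IV subunits exist as a widely expressed form and a form found mainly in heart and skeletal muscle, testis or lung.

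Promoter windows of 8 members named below are given first as examples. Each runs 5′ to 3′ from 250 bases before to 50 bases after an annotated start site (RefSeq, GRCm38.p6). Capitals mark the E-box CACGTG or the binding motif of the transcription factor NRF1, a regulator of respiratory genes, searched on both strands as GCGCA, any base, then GCGC. No other letters are in capitals. Sdha, Ndufb3, Ndufaf5 and Cox7c had some of the highest fold enrichments among the members, Cox7a2 had its summits at an inner start site, Ndufa7 holds an E-box, and the muscle isoform genes Cox7a1 and Cox8b had no peak at either end.
Sdha, chr13:74350191-74350490, minus strand: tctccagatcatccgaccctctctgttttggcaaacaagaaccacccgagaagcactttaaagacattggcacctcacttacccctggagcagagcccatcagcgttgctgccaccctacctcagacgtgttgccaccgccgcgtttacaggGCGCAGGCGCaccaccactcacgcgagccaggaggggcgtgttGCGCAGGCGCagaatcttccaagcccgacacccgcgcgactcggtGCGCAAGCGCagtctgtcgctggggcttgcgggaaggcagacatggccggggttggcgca
Ndufb3, chr1:58586147-58586446, plus strand: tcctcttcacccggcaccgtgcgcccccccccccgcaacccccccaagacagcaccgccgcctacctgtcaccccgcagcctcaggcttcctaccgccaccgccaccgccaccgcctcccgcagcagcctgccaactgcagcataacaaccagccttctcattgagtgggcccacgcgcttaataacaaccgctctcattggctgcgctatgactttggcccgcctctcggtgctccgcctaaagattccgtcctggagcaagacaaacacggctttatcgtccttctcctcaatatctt
Ndufaf5, chr2:140170396-140170695, plus strand: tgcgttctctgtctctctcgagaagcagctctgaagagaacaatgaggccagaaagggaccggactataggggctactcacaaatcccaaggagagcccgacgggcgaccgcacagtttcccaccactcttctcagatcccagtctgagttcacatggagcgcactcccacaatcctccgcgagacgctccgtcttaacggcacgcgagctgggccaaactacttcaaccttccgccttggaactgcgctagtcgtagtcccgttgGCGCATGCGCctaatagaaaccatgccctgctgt
Cox7c, chr13:86046746-86047045, minus strand: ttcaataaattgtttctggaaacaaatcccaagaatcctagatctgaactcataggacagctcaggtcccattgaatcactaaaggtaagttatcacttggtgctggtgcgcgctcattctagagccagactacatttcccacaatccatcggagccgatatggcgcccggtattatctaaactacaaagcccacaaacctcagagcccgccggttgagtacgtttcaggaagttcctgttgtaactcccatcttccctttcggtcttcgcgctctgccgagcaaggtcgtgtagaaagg
Cox7a2, chr9:79759804-79760103, minus strand: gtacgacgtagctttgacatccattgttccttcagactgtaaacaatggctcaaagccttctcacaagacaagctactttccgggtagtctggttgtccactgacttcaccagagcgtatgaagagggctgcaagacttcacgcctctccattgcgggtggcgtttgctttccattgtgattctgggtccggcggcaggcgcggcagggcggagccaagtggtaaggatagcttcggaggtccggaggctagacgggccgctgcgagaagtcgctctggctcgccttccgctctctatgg
Ndufa7, chr17:33824322-33824621, plus strand: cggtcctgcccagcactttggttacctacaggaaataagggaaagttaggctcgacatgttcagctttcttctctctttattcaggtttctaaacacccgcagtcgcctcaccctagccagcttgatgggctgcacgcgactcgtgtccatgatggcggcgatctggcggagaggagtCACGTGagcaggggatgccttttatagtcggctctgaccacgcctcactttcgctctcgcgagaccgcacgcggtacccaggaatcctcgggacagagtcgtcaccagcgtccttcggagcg
Cox7a1, chr7:30183921-30184220, plus strand: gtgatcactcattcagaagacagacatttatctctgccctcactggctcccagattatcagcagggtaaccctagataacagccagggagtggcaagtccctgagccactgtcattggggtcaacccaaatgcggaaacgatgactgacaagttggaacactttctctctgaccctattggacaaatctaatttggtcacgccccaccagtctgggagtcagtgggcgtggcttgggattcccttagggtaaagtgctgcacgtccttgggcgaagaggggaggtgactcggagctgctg
Cox8b, chr7:140900397-140900696, minus strand: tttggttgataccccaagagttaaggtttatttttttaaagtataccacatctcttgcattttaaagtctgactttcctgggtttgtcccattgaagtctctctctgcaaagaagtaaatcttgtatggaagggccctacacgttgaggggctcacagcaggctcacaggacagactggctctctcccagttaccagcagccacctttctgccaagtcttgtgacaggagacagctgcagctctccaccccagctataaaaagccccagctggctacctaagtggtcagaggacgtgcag

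End peaks, meaning a summit within 1 kb of either annotated end of a gene, were found at most members in 2 libraries, and at no member in the other 4. Bmal1 CKO 2 had an end peak at 84 of the 96 members (87.5%), where 58.9% of all protein-coding genes had one. Control 1 had an end peak at 86 of 96 (89.6%), where the share over all protein-coding genes was 69.5%. Bmal1 CKO 1, Bmal1 CKO 3, control 2 and control 3 had 0 of 96, and there the shares over all genes were 0.342%, 0.105%, 0.0594% and 0.0594%. The lists of those 4 libraries hold 1444, 519, 410 and 372 peaks, against 138254 in Bmal1 CKO 2 and 179475 in control 1. The libraries with a high share thus carry different genotype labels, 1 to each. Deposited lists and library titles are numbered differently, so the library and genotype given for every value rest on the series record.

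Between genotypes, the share of members with an end peak averaged 29.2% ± 50.5 in Bmal1 CKO libraries and 29.9% ± 51.7 in control libraries (SD, n = 3 each), a difference of −0.694 percentage points that is far smaller than the spread within either group. No p is given for it, since the members were chosen with results of these data known. Without Bmal1 CKO 2 the difference was −29.9 points, and without control 1 it was 29.2 points, so it rests on those 2 libraries.

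**Figure D1:**
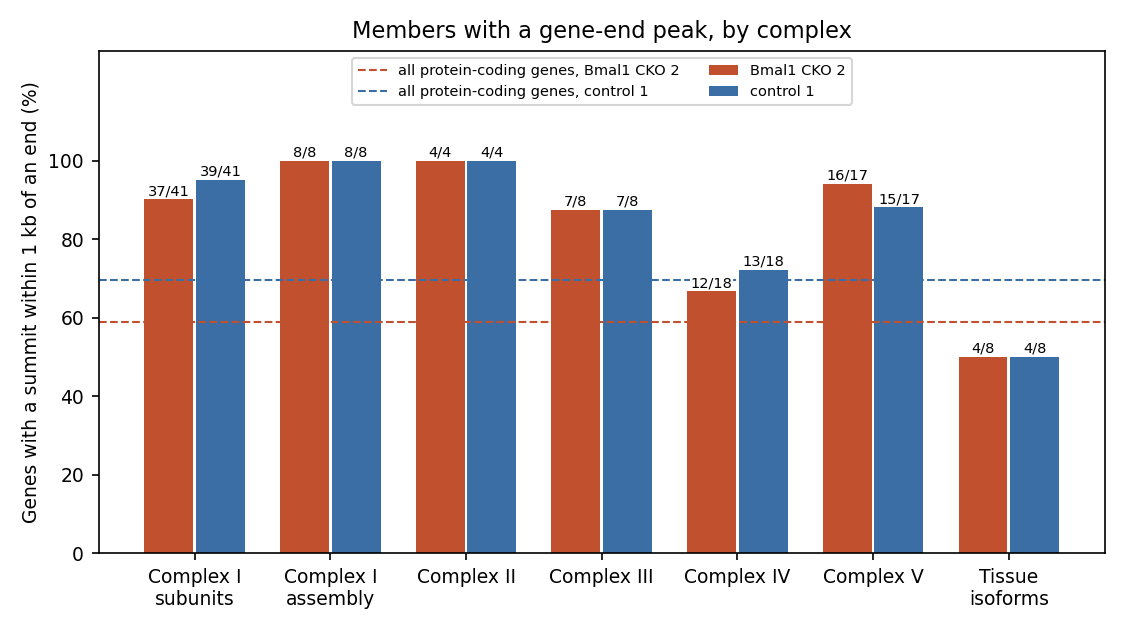
Share of genes with a summit within 1 kb of either end (vertical axis, percent) in the 2 libraries with long lists, Bmal1 CKO 2 and control 1, for each respiratory complex and for the tissue-specific isoforms. Labels above the bars give genes with a peak over genes in the set, and dashed lines give the share over all protein-coding genes (58.9% in Bmal1 CKO 2 and 69.5% in control 1). Complex II and the assembly factors reach 100%, whereas the tissue isoforms stand at 50%, below both lines, with 4 of 8 genes in each library.

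Of the 96 members, 82 had an end peak in both long lists, where 54.7% of all protein-coding genes had one in both. Another 2 had one in Bmal1 CKO 2 and not in control 1 (background 4.22%), 4 had one in control 1 and not in Bmal1 CKO 2 (background 14.8%), and 8 had one in neither (background 26.3%). The 2 listed for Bmal1 CKO 2 alone were Atp5g3 and Cox6b2, and the 4 listed for control 1 alone were Cox4i1, Cox4i2, Ndufa7 and Ndufa11. With 1 library per genotype in this comparison, a gene present in 1 list and absent from the other has no replicate check.

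Complex I, the NADH dehydrogenase, had end peaks at 37 of its 41 genes by symbol in Bmal1 CKO 2 and at 39 of 41 in control 1. The members with Ndufb symbols, a family that builds part of the membrane arm, all had one (13 of 13 in each library). They include the short copies Ndufb4b and Ndufb4c, whose values are uncertain. In the Ndufa family (with Ndufa4, by its symbol) it was 12 of 15 in Bmal1 CKO 2 and 14 of 15 in control 1. Fold enrichment is the authors' ratio of fragments at the summit to the local background of the same library. It was highest in this complex at the membrane-arm gene Ndufb3, with 5.44 in Bmal1 CKO 2 and 7.09 in control 1. Ndufs4, an accessory subunit gene whose loss causes Leigh syndrome in humans, had 4.64 in Bmal1 CKO 2 and 6.69 in control 1. In both libraries these stood above the medians over all genes with an end peak, which were 3.10 in Bmal1 CKO 2 and 3.93 in control 1.

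The 7 nuclear core subunits of complex I, which carry the flavin and the iron-sulfur clusters or bind ubiquinone, had a lower median fold than the accessory subunits, with overlapping values and no test. In Bmal1 CKO 2 their median was 2.86 (6 genes with a peak), against 3.28 for the accessory subunits (31 genes). In control 1 it was 3.51 (6 genes), against 4.64 (33 genes). Accessory subunits here are all other complex I genes by symbol, with Ndufb4b and Ndufb4c among them. Ndufv1, which holds the NADH-binding site, had 2.64 in Bmal1 CKO 2 and 3.14 in control 1. Its partner Ndufv2 had 3.78 in Bmal1 CKO 2 and 3.89 in control 1. Ndufs1, with several iron-sulfur clusters, had 3.60 in Bmal1 CKO 2 and 5.14 in control 1, and Ndufs3 had 3.08 in Bmal1 CKO 2 and 4.48 in control 1. Ndufs8, another iron-sulfur subunit gene, had 2.05 in Bmal1 CKO 2 and 2.62 in control 1, near the bottom of the members. Ndufs7, a subunit with the last iron-sulfur cluster before ubiquinone, had no end peak in either list.

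All 8 complex I assembly factor genes had an end peak in both long lists. They included the highest fold of any member in Bmal1 CKO 2, at Ndufaf5, a factor that modifies a core subunit during assembly (5.73 in Bmal1 CKO 2 and 6.30 in control 1). Ndufaf4 had 5.03 in Bmal1 CKO 2 and 6.54 in control 1. Ndufaf2 had 3.66 in Bmal1 CKO 2 and 6.60 in control 1, whereas Ndufaf8 had 2.15 in Bmal1 CKO 2 and 2.62 in control 1. The family thus spanned most of the range of the members, which was 1.99 to 5.73 in Bmal1 CKO 2 and 2.08 to 7.40 in control 1.

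All 4 genes of complex II, succinate dehydrogenase, had end peaks in both long lists, and they differed widely among themselves. Sdha, the flavoprotein subunit (chromosome 13, 74322255 to 74350240), had a fold of 5.42 in Bmal1 CKO 2 and 7.17 in control 1. Its summits at 74350334 and 74350272 lay 94 bp upstream of the start site in Bmal1 CKO 2 and 32 bp upstream in control 1, among the NRF1 motifs shown above. Sdhd, a membrane anchor, had 4.14 in Bmal1 CKO 2 and 4.83 in control 1. The other anchor, Sdhc, had 3.35 in Bmal1 CKO 2 and 5.93 in control 1. Sdhb, the iron-sulfur subunit, was the lowest of the 4 in both libraries, with 2.40 in Bmal1 CKO 2 and 3.17 in control 1.

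In complex III, 7 of 8 genes had an end peak in each of the long lists. Uqcrb, an accessory subunit near the ubiquinone site, had 4.10 in Bmal1 CKO 2 and, in control 1, the highest end fold of any member (7.40). The core protein genes Uqcrc1 (3.37 in Bmal1 CKO 2 and 5.17 in control 1) and Uqcrc2 (3.90 in Bmal1 CKO 2 and 5.49 in control 1) and the Rieske iron-sulfur gene Uqcrfs1 (3.31 in Bmal1 CKO 2 and 4.44 in control 1) followed. The small subunit gene Uqcr11 had an end peak in neither. In complex V, 16 of 17 genes had one in Bmal1 CKO 2 and 15 of 17 in control 1. Atp5a1 and Atp5b, which encode the alpha and the catalytic beta subunit, had folds of 2.88 and 2.97 in Bmal1 CKO 2, against 3.30 and 4.97 in control 1. The highest fold of complex V was at the stalk subunit gene Atp5pb, with 3.86 in Bmal1 CKO 2 and 6.21 in control 1. The median fold of complex V was the lowest of the complexes in each library (2.98 in Bmal1 CKO 2 and 4.005 in control 1).

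The 3 genes of subunit c, which forms the rotating ring of ATP synthase and has the same mature sequence from each, all had peaks. Atp5g1 had folds of 3.12 in Bmal1 CKO 2 and 3.48 in control 1, and Atp5g2 had 2.85 in Bmal1 CKO 2 and 3.91 in control 1. Atp5g3 had an end peak only in Bmal1 CKO 2, of fold 2.38 from 20 stacked fragments. In control 1 its nearest summit to an end was 1202 bp away, outside the limit. A start site 1138 bp inside the gene had a higher peak in both, 34 bp away with fold 4.15 in Bmal1 CKO 2 and 64 bp away with fold 5.09 in control 1.

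Complex IV, cytochrome c oxidase, had the lowest share of the complexes. It had an end peak at 12 of 18 genes in Bmal1 CKO 2 (66.7%, all genes 58.9%). In control 1 it had one at 13 of 18 (72.2%, all genes 69.5%). Its highest fold was at Cox7c, which encodes a small subunit (5.12 in Bmal1 CKO 2 and 6.28 in control 1). Cox5b, whose product binds zinc, had 3.66 in Bmal1 CKO 2 and 5.26 in control 1. Leaving out the 7 tissue isoforms of this complex, 8 of 11 genes had an end peak in Bmal1 CKO 2 and 9 of 11 in control 1. Cox5a and Cox7a2, counted as having none in either list, had summits by start sites inside the annotated gene in both.

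**Figure D2:**
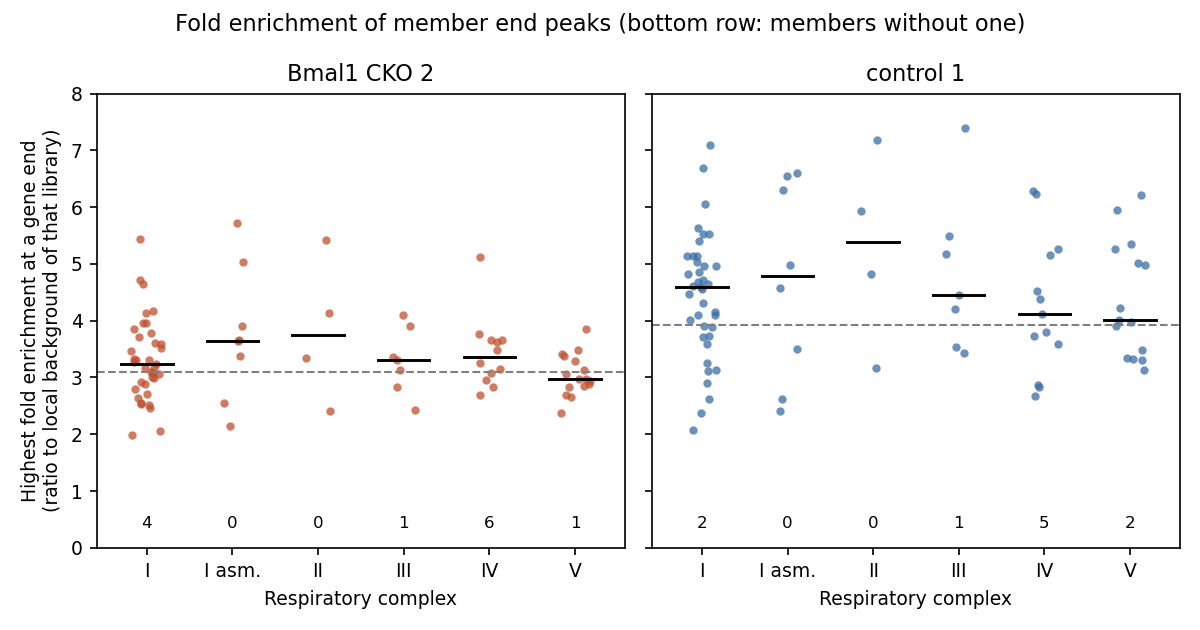
Highest fold enrichment at a gene end for each member with an end peak (points; vertical axis, ratio to the local background of the same library), by respiratory complex, in Bmal1 CKO 2 and control 1. Black bars are medians of the members with a peak, the dashed line is the median over all protein-coding genes with one (3.10 in Bmal1 CKO 2 and 3.93 in control 1), and the numbers at the bottom count members without one. Members of each complex spread on both sides of the dashed line, and complex IV has the most members without a peak (6 in Bmal1 CKO 2 and 5 in control 1).

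Of 8 tissue isoforms (the 7 of complex IV and Ndufa4l2, a relative of Ndufa4 induced in low oxygen), 4 had an end peak in Bmal1 CKO 2 and 4 in control 1, with 3 in both. Of the 7 widely expressed counterparts, 5 had one in Bmal1 CKO 2 and 6 in control 1. Cox7a2, a counterpart counted without one, had summits at an inner start site in both lists. Over all genes, 58.9% had an end peak in Bmal1 CKO 2 and 69.5% in control 1. Sets this small cannot be placed against those shares. The muscle isoform genes Cox7a1 and Cox8b had no end peak in either list. Their nearest summits to an end were 5972 bp and 7848 bp away in Bmal1 CKO 2, and 7891 bp and 6261 bp away in control 1. The other muscle isoform gene, Cox6a2, had 2.84 in Bmal1 CKO 2 and 3.72 in control 1, and its counterpart Cox6a1 had 2.95 in Bmal1 CKO 2 and 4.51 in control 1. An end of another gene lies within 1 kb of each of these muscle isoform genes (Itgad at Cox6a2, Capns1 at Cox7a1 and Psmd13 at Cox8b).

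The testis isoform gene Cox8c had one of the higher folds of complex IV, with 3.76 in Bmal1 CKO 2 and 5.16 in control 1, above its counterpart Cox8a (3.15 in Bmal1 CKO 2 and 4.12 in control 1). It was also the only member with any peak in a short list within the gene or 10 kb around it, at 102892993 on chromosome 12 in Bmal1 CKO 3 (fold 6.63). By that wider rule 94 of 96 members had a peak in Bmal1 CKO 2 (87.8% of all genes) and 96 of 96 in control 1 (92.6% of all genes). The shares over all genes were 2.05% in Bmal1 CKO 1, 1.08% in Bmal1 CKO 3, 0.781% in control 2 and 0.758% in control 3. The testis gene Cox7b2 had 3.66 in Bmal1 CKO 2 and 3.59 in control 1. Its summits lay near the end away from its start site, at 884 bp in Bmal1 CKO 2 and 748 bp in control 1. Its counterpart Cox7b had 3.07 in Bmal1 CKO 2 and 3.80 in control 1. The testis gene Cox6b2 had 2.69 in Bmal1 CKO 2 and no end peak in control 1, whereas Cox6b1 had 3.26 in Bmal1 CKO 2 and 2.88 in control 1. These are single genes in 1 library per genotype, and Cox7b2 had no summit within 1 kb of its start site in either.

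The lung isoform gene Cox4i2 and its counterpart Cox4i1 both had an end peak in control 1 and not in Bmal1 CKO 2. At Cox4i2 the nearest summit lay 1576 bp from an end in Bmal1 CKO 2, and the fold in control 1 was 2.67. At Cox4i1 it lay 4329 bp away in Bmal1 CKO 2, and the fold in control 1 was 2.82. Ndufa4 had 3.95 in Bmal1 CKO 2 and 5.62 in control 1, and Ndufa4l2 had no end peak in either list. In control 1 its nearest summit was 1134 bp away, the closest of any member outside the limit in that library. Cox7a2l, which encodes a factor that joins complexes III and IV, had 3.63 in Bmal1 CKO 2 and 6.23 in control 1. For comparison, end peaks in Bmal1 CKO 2 were found at 1 of 6 rod genes, 2 of 5 muscle genes and 2 of 5 testis genes. In control 1 they were found at 2 of 6, 3 of 5 and 4 of 5. Over all genes the shares were 58.9% in Bmal1 CKO 2 and 69.5% in control 1. Sets of 5 or 6 genes cannot be placed against these shares. Peak lists do not measure expression, so they cannot check the tissue label.

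Summits lay close to start sites. A start site with its strand was listed for 78 of the 96 members, and 71 of these had a summit within 1 kb of it in Bmal1 CKO 2 (91%) and 72 in control 1 (92.3%). Over the 17492 protein-coding genes with a listed start site the share was 59.7% in Bmal1 CKO 2 and 69.2% in control 1. In the short lists it was 0 of 78, where all genes had 0.217% in Bmal1 CKO 1, 0.0972% in Bmal1 CKO 3, 0.04% in control 2 and 0.0457% in control 3. The nearest summit lay between 348 bp upstream and 423 bp downstream in Bmal1 CKO 2, with a median of 60 bp downstream. In control 1 it lay between 356 bp upstream and 456 bp downstream, with a median of 72 bp downstream. All member summits counted here were thus within 500 bp of a start site, as were 89.8% of those of all genes in Bmal1 CKO 2 and 90.3% in control 1. Upstream summits made up 22 of 71 in Bmal1 CKO 2 (31%; all genes 41.6%) and 23 of 72 in control 1 (31.9%; all genes 36.4%).

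**Figure D3:**
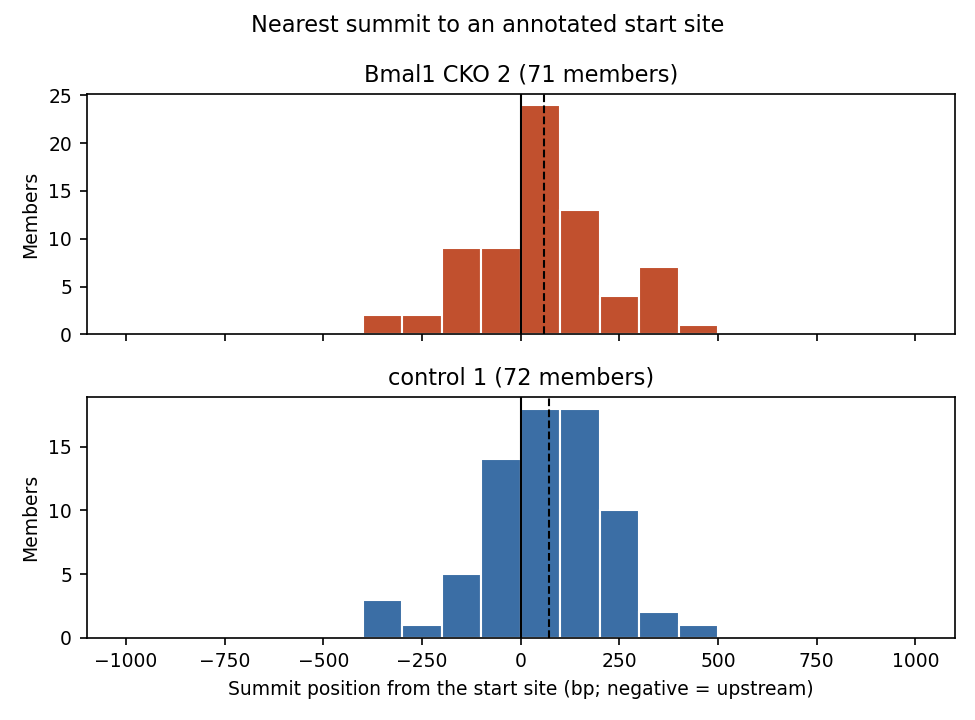
Position of the nearest summit relative to an annotated start site (horizontal axis, bp, negative values upstream; vertical axis, number of members per 100 bp) for 71 members in Bmal1 CKO 2 and 72 in control 1. Solid lines mark the start site and dashed lines the medians of 60 bp in Bmal1 CKO 2 and 72 bp in control 1. The summits fall on both sides of the start site, and most of them downstream.

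Measured to either gene end, the median distance of the nearest summit was 112 bp in Bmal1 CKO 2 (193 bp over all genes with an end peak) and 152 bp in control 1 (202 bp). Within 250 bp of an end lay the summits of 62 of 84 members in Bmal1 CKO 2 (73.8%; all genes 59.6%) and of 66 of 86 in control 1 (76.7%; all genes 58.3%). Just inside the limit were Atp5a1 (577 bp) and Cox7b2 (884 bp) in Bmal1 CKO 2, and Atp5j (572 bp) and Cox7b2 (748 bp) in control 1. Just outside were Cox4i2 (1576 bp) and Atp5d (3276 bp) in Bmal1 CKO 2, and Ndufa4l2 (1134 bp) and Atp5g3 (1202 bp) in control 1. Few members therefore depend on the exact limit.

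The start sites also show that some members without an end peak had a summit at a promoter inside the annotated gene. At Cox7a2, the widely expressed counterpart of Cox7a1 (chromosome 9, 79755241 to 79771422), the listed start site lies 11569 bp inside the upper end. A summit was found 120 bp from it in Bmal1 CKO 2 (fold 5.05) and 178 bp from it in control 1 (fold 8.30). The fold in control 1 was above the end fold of every member in that library. Cox5a, a complex IV subunit gene, had a summit by a start site 3904 bp inside the gene, 168 bp away in Bmal1 CKO 2 (fold 3.16) and 206 bp away in control 1 (fold 5.05). Atp5d, which encodes the delta subunit, had one by a start site 3577 bp inside, 158 bp away in Bmal1 CKO 2 (fold 2.23) and 272 bp away in control 1 (fold 2.60). By start sites, 70 of the 78 members had a peak in both lists, where 56.3% of all genes with a start site did. Another 5 had one in neither, and these were Cox7a1, Cox7b2, Cox8b, Ndufs7 and Uqcr11.

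Fold varied among members more with the local background than with the number of fragments at the summit. Both were solved from the deposited fold and p-value of each peak. At the highest end peak of each member, 20 to 53 fragments were stacked in Bmal1 CKO 2 (median 37) and 15 to 46 in control 1 (median 33). The local background ran from 5.83 to 20.2 fragments in Bmal1 CKO 2 and from 3.46 to 15.6 in control 1. Sdha and Sdhb show the contrast. In Bmal1 CKO 2, Sdha had 36 fragments (exact 95% Poisson interval 25.2 to 49.8, counting error only) over 5.83, and Sdhb had 45 (32.8 to 60.2) over 18.1. In control 1, Sdha had 31 (21.1 to 44.0) over 3.46, and Sdhb had 41 (29.4 to 55.6) over 12.3. Sdhb thus had the lower fold and the higher fragment number in both libraries, although the fragment intervals overlap.

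Across members with an end peak, the Spearman correlation of fold with fragments was 0.109 in Bmal1 CKO 2 (84 genes) and 0.211 in control 1 (86 genes), and with background it was −0.717 in Bmal1 CKO 2 and −0.746 in control 1. Over all genes with an end peak it was 0.24 for fragments and −0.621 for background in Bmal1 CKO 2, and 0.294 and −0.657 in control 1. These are descriptions across genes of 1 library, and fold contains both quantities by its definition. The genome-wide level of the library, its lowest repeated background, was the background at 6 of 84 members in Bmal1 CKO 2 (7.14%; all genes 10.3%) and 4 of 86 in control 1 (4.65%; all genes 9.08%), among them Sdha and Cox7c in both.

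**Figure D4:**
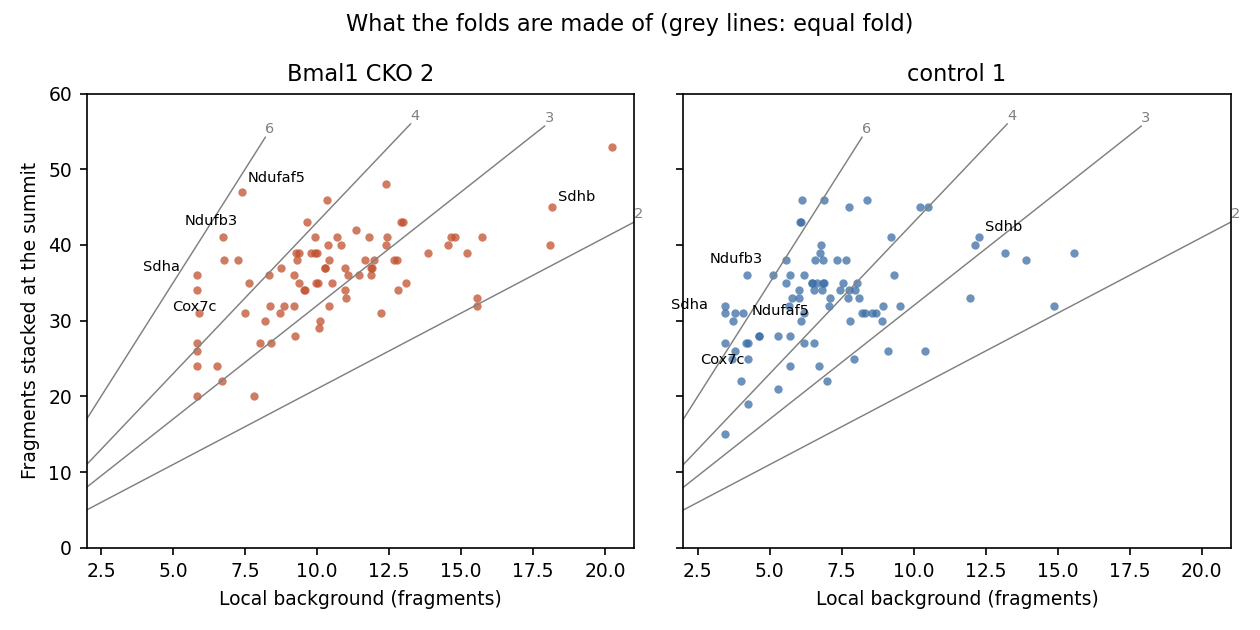
Fragments stacked at the highest end peak of each member (vertical axis) against the local background there (horizontal axis, fragments), in Bmal1 CKO 2 and control 1. Grey lines join points of equal fold, with the fold at their end. Sdha sits at the lowest background with a high fold, whereas Sdhb has more fragments over a higher background and a lower fold.

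Members present in both long lists had their peaks at nearly the same place. Of the 82 members in both, 76 had overlapping intervals for their highest end peak (92.7%, against 85.4% of the 11974 genes in both), and the median gap between summits was 93.5 bp (150 bp over those genes). The gap was 62 bp at Sdha, 109 bp at Ndufb3, 69 bp at Ndufaf5 and 78 bp at Cox7c. The fold was higher in Bmal1 CKO 2 at 3 members (Cox6b1, Cox7b2 and Ndufaf3) and higher in control 1 at 79 (96.3%, against 94.7% over all genes in both). Folds of libraries that differ in depth are not a measure of changed binding, and the direction was shared by nearly all genes. Ranked within its own library, the median member stood at percentile 58.4 in Bmal1 CKO 2 and 65.5 in control 1 of all genes with an end peak.

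The short lists were also set against the depth of their libraries. The genome-wide background level, taken as the relative depth, was 2.78, 5.83 and 0.56 fragments in Bmal1 CKO 1, 2 and 3 and 3.46, 0.609 and 0.852 in control 1, 2 and 3. The number of fragments and the background at each member's peak were scaled to the level of another library and set against the lowest −log10 p-value in its list. Scaled from Bmal1 CKO 2, 0 of 84 members would have reached the lowest value listed in Bmal1 CKO 3, control 2 or control 3. Scaled from control 1, 1 of 86 (Ndufb3) would have reached it in Bmal1 CKO 3, 0 in control 2 and 7 in control 3. The lists of these 3 libraries held no end peak at a member. The scaling takes the enrichment over background to be equal in both libraries, which was not checked. In Bmal1 CKO 1, by contrast, 38 of 84 members scaled from Bmal1 CKO 2 and 80 of 86 scaled from control 1 would have reached the lowest value of its list, which held none of them. Of all genes, 75 had an end peak in the list of Bmal1 CKO 1. The part of depth in the short lists was not tested.

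Promoters of the members were richer in CpG dinucleotides than those of all genes, with a median of 20 per 300-base window (78 members) against 13 (17492 genes). When all promoters were split into 3 classes of similar size, 3 members fell in the class with at most 6 CpG, 43 in the class with up to 21, and 32 in the class above. In the highest class, 87.5% of members had an end peak in Bmal1 CKO 2 (80.5% of all genes in that class) and 93.8% in control 1 (90.8% of all genes). In the middle class it was 90.7% of members in Bmal1 CKO 2 (72% of all genes) and 86% in control 1 (84.1% of all genes). In the lowest class, 2 of 3 members had one in each library (66.7%), where all genes had 29.9% in Bmal1 CKO 2 and 37.8% in control 1. In control 1 the members' shares in the middle and highest classes were thus within a few points of those of all genes. In Bmal1 CKO 2 they were further above them, most of all in the middle class (90.7% against 72%). The lowest class held too few members to compare. The promoters of Cox7a1 and Cox8b held 7 and 2 CpG, and that of Sdha held 25. The part of CpG content in the result was not tested.

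Members also had near neighbours and were short. An end of another protein-coding gene lay within 1 kb of 54 of the 96 members (56.2%), and of 5439 of all 21900 genes. A peak there may belong to either gene. In Bmal1 CKO 2, end peaks were found at 87% of these 54 and at 88.1% of the other 42, against 72.1% of all genes with such a neighbour and 54.5% without. In control 1 it was 90.7% of the 54 and 88.1% of the 42, against 83.2% and 65% of all genes. The median length was 7.23 kb for members and 17.1 kb for all genes. The shortest of 3 equal length classes held 62 members, and 87.1% of them had an end peak in each long list, where all genes of that class had 44% in Bmal1 CKO 2 and 55.1% in control 1.

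The E-box was no more common in member promoters than in others. CACGTG was found in the windows of 6 of 78 members (7.69%), against 8.91% of the 17492 genes, and these were Atp5g1, Atp5g3, Atp5l, Atp5pb, Ndufa7 and Ndufv1. Of these 6, 5 had an end peak in each long list, as had 64 of the 72 members without the motif. Of all genes with the E-box, 72.3% had one in Bmal1 CKO 2 and 83.1% in control 1. At Ndufa7, Bmal1 CKO 2 listed no summit within 1 kb of the start site, and in control 1 the E-box lay 50 bp from a summit (fold 2.91). At Atp5g1 it lay 299 bp from the nearest summit in Bmal1 CKO 2 and 103 bp from it in control 1, inside the peak in both. The motif lay inside a peak at 3 of the 6 genes in Bmal1 CKO 2 and at 3 of the 6 in control 1, and Atp5g1 alone had it inside in both. At Ndufv1 it was outside in both, 346 bp from the nearest summit in Bmal1 CKO 2 and 245 bp in control 1.

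Motifs of general regulators of respiratory genes were counted in the same windows, with no test. The NRF1 motif was in 19 of 78 member promoters (24.4%, against 7.17% of all), 3 times in that of Sdha, and the motif of YY1, AAGATGGC, in 11 (14.1%, against 3.57%). The motif of the ETS factor GABPA, CCGGAAGT, was in 5 (6.41%, against 5.69%), and the cAMP response element TGACGTCA in 4 (5.13%, against 2.54%). Of the 19 members with the NRF1 motif, 18 had an end peak in each long list, and of all genes with it 86.1% had one in Bmal1 CKO 2 and 91.8% in control 1. A match of letters is not evidence of binding.

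Genes outside the rule that serve the same pathway also had end peaks in most cases. There were 46 such genes (cytochrome c, Cyc1, assembly factors and transcription regulators). Of these, 42 had one in Bmal1 CKO 2 (91.3%, all genes 58.9%) and 45 in control 1 (97.8%, all genes 69.5%). All 16 complex IV assembly genes had one in both lists, among them Cox10, which helps make the heme of cytochrome oxidase (3.86 in Bmal1 CKO 2 and 6.56 in control 1), and Cox15 (3.35 in Bmal1 CKO 2 and 5.83 in control 1). The cytochrome c gene Cycs had 3.96 in Bmal1 CKO 2 and 5.77 in control 1. The complex III subunit gene Cyc1 had an end peak in control 1 alone (3.10). Ppargc1a, the coactivator gene that drives mitochondrial biogenesis, had none in either. Of 78 mitochondrial ribosomal protein genes, 69 had one in Bmal1 CKO 2 (88.5%) and 73 in control 1 (93.6%), beside the same shares over all genes. Some of these genes lie within 1 kb of a member, as Gabpa does of Atp5j, Mrpl47 of Ndufb5 and Mrpl36 of Ndufs6. Gabpa and Atp5j had the same folds (3.42 in Bmal1 CKO 2 and 4.22 in control 1). Such peaks may be counted for both genes.

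The targeted gene, Arntl (Bmal1), had no end peak in any of the 6 libraries. In the gene or within 10 kb it had 15 peaks in Bmal1 CKO 2, 19 in control 1 and 0 in the other 4. The peak lists do not measure whether it was deleted.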

How the data were processed

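Each library has 1 peak list, which the authors called per library. Each list was taken as belonging to the library under which the series record holds it. The numbers in the deposited names differ from those in the titles, and nothing in the files checks the match. Per the submitters' processing notes, build mm10 was used with Bowtie2, MACS2 and Trim Galore. What versions and settings they had, and whether an input served as background, is not given in the sources used here. Per peak the authors deposited a fold enrichment (a ratio at the summit to the local background), −log10 p-values and q-values, the summit and a score (the −log10 q-value times 10, without decimals).

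Summits were assigned to genes with Python 3.11.15 (pandas 2.3.3, numpy 2.4.6, scipy 1.17.1). For a gene with several end peaks, the nearest summit gives its distance and the highest fold its fold. Fragments and background were solved from fold and p-value (Poisson, pseudocount 1), checked on simulated pairs. Depth was the lowest background repeated in at least 1% of up to 3000 peaks per list. Gene shares are counts over complete lists and carry no sampling interval. Fragment intervals cover counting error only.

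Members and lists were chosen with earlier results of these data known, so no set test was run. Named genes are the isoform pairs, core complex I, complex II, the 5 highest folds per long list, members missing from a long list and those nearest the limit, with further members named as examples. The values of 1 core complex I gene are not reported here. The labels do not say whether replicate libraries came from separate mice. The stretch of chromosome 10 was chosen after its values were seen.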

Additional observations from a re-analysis of the deposited data

How the results depend on the processing

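Among the alternatives run, the share of members with an end peak in Bmal1 CKO 2 and control 1 changed with the strength asked of a peak. With peaks of −log10 q-value 5 or more, it was 66.7% in Bmal1 CKO 2 (all genes 33.2%) and 80.2% in control 1 (all genes 52.7%). With peaks of fold 3 or more, it was 57.3% in Bmal1 CKO 2 (all genes 32.8%) and 80.2% in control 1 (all genes 55.9%). Counting summits in the gene or within 10 kb gave 97.9% in Bmal1 CKO 2 (all genes 87.8%) and 100% in control 1 (all genes 92.6%). With the 372 strongest peaks of every library it was 0% in Bmal1 CKO 2 (all genes 0.187%) and 0% in control 1 (all genes 0.196%), so no member end held one of these. Windows of 500 bp or 2 kb, start sites alone, overlapping intervals, structural subunits alone and equal lengths of the long lists kept it between 84.4% and 92.7%. The difference in mean share between genotypes ranged from −29.9 to 29.2 points when 1 library was left out. With the replicate number as a block it was −0.694, as without it. For same-numbered libraries the correlations over 16152 genes were 0.104, 0.115 and −0.123. Each number holds at least 1 short list, so these values cannot show whether the libraries were paired. The numbers were not treated as pairs. The part of depth in the short lists was not tested, and the scaling by depth takes an equal enrichment that was not checked. Members that by this scaling would have reached the lowest value listed in Bmal1 CKO 1, Bmal1 CKO 3 or control 3 had no end peak there. The median distances and folds moved by less than the spread between members.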

Other observations

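Of the 8 members with no end peak in either long list, 3 lie close together on chromosome 10. Atp5d, Ndufs7 and Uqcr11 fall in a stretch of 268 kb (80138698 to 80406821) that holds 19 protein-coding genes. Of the 16 others there, 6 had an end peak in Bmal1 CKO 2 and 10 in control 1. Over all 19, which include the 3 picked for having none, it was 31.6% in Bmal1 CKO 2 (all genes 58.9%). In control 1 it was 52.6% (all genes 69.5%). This stretch held 9 of the 138254 summits of Bmal1 CKO 2 and 25 of the 179475 of control 1. A density over the genome is not given, so these summit counts cannot be placed. Why the 3 members had no end peak was not tested.

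The mitochondrial chromosome, which encodes the remaining subunits, carried 5 peaks in Bmal1 CKO 1 (highest fold 2.40), 13 in Bmal1 CKO 2 (3.31) and 10 in control 1 (4.31), and none in the other libraries. Of its 13 protein-coding genes, Bmal1 CKO 1 had an end peak at 6 (share over all genes 0.342%). Bmal1 CKO 2 had one at 10 (all genes 58.9%) and control 1 at 10 (all genes 69.5%). In Bmal1 CKO 1, whose list held no nuclear member, the 5 peaks gave end peaks at 6 genes. A single peak there can thus count for more than 1 gene, and these counts are not comparable with those of the nuclear members.

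Of 19 table entries with the same symbol prefixes that are not protein-coding, 7 had an end peak in Bmal1 CKO 2 and 8 in control 1. The shares over protein-coding genes were 58.9% in Bmal1 CKO 2 and 69.5% in control 1. A share over other entries that are not protein-coding is not given, so these counts cannot be placed. The short copies Ndufb4b (471 bp) and Ndufb4c (485 bp) had folds of 4.18 and 4.72 in Bmal1 CKO 2, against 5.14 and 5.53 in control 1. Ndufb4 had 3.10 in Bmal1 CKO 2 and 5.41 in control 1. How reads that match several copies were placed is not given in the sources used here, so these values are uncertain.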
